A study of Mus musculus with 28 samples.

Results

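The 9 genes RORA, STAT3, BATF, IRF4, MAF, AHR, IL23R, IL1R1 and CCR6 encode transcription factors and surface receptors of T helper 17 (Th17) cells. They were chosen by symbol, with earlier results of these data known, and are 9 of the 20891 genes in the deposited tables. Of these, 8 passed the filter on low counts that left 10985 genes to test, and IL1R1 did not. The study asked how DFMO, an inhibitor of ornithine decarboxylase and so of polyamine synthesis, acts on differentiating T cells, and whether the histone demethylase JMJD3 (gene KDM6B) is needed for it. Naive splenic CD4+ cells of C57BL/6 mice were activated with anti-CD3 and anti-CD28 (1 µg/ml each). They were cultured with IL-6 (25 ng/ml) and TGF-beta1 (2 ng/ml) as non-pathogenic Th17 cells (Th17n), or with TGF-beta1 alone (2 ng/ml) as induced regulatory T cells (iTreg). Cultures stood without DFMO (ctrl) or with 100 µM DFMO and were harvested at 68 h. The donors were 4 wild-type animals (WT) and 3 animals of the JMJD3fl/fl CD4cre line (KO), in which Cre expressed from the CD4 promoter deletes the floxed gene in T cells. Each animal gave 4 cultures, which made 8 groups of 4 (WT) or 3 (KO) libraries, with 1 animal behind each replicate number within a genotype. The animals' age, and whether the WT animals carried Cre, were not given in the sources used here.

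In Th17 differentiation, IL-6 acts through the transcription factor STAT3, while the pioneer factors BATF and IRF4 bind together and open chromatin at Th17 genes. The nuclear receptor RORA helps to drive the IL-17 program. MAF and the ligand-activated AHR shape cytokine output, and the receptors IL23R, IL1R1 and CCR6 let the cells respond to IL-23, to IL-1 and to the chemokine CCL20.

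Total estimated counts per library ran from 2226914 to 4759290. KDM6B itself was lowered but not lost in KO cultures, for instance at 28.6 to 43.3 CPM (the count scaled to library size) against 33.5 to 60.6 in WT Th17n ctrl, and the difference was called only with DFMO (adjusted p = 0.0076 in Th17n and 0.00251 in iTreg, edgeR). A gene-level count also takes in exons outside the deleted stretch, which makes it only a partial check of genotype. CD4 T cell markers were present in every library, with CD3D at 215 to 489.8 CPM and CD4 at 254 to 708. In WT Th17n their summed level (6 of 7 matched) was 2408 to 2679 CPM without DFMO and 1836 to 2039 with it, and 5 of the 6 were called in that comparison. Summed levels of other cell types stayed low. They were at most 25.9 CPM for the 2 CD8 T cell markers, 21.4 for 5 B cell markers and 17.9 for 5 myeloid markers, with LYZ2 at 0 in 27 libraries. With DFMO in WT Th17n the CD8 pair went from between 14.1 and 21.0 CPM to between 6.10 and 10.1, and the myeloid sum from between 8.01 and 9.25 to between 2.12 and 3.90. The B cell sum there was 4.51 to 5.74 CPM without DFMO and 0.520 to 3.18 with it. Between the untreated WT cultures, the sum of 4 NK and innate lymphoid markers was 4.25 to 8.44 CPM in Th17n and 0 to 2.63 in iTreg. The B cell sum was 6.05 to 14.6 in iTreg and the myeloid sum 3.56 to 7.32, neither overlapping Th17n, while the CD4 and CD8 sums overlapped. The part of these shifts in the results below was not tested, and in bulk samples fewer cells of a type and less RNA per cell cannot be told apart.

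Compared per transcript length (TPM, which scales for transcript length and library size), the untreated WT Th17n cells held most of STAT3 at 232 ± 28.5 TPM (SD, n = 4). IRF4 at 176 ± 14.1 and BATF at 174 ± 12.6 came next and did not differ beyond their spread. RORA followed at 78.1 ± 11, CCR6 at 54.2 ± 11.8 and MAF at 10.3 ± 0.989. The lowest levels were those of AHR (5.53 ± 0.925), IL23R (4.69 ± 0.910) and IL1R1 (1.08 ± 0.873). AHR and IL23R overlapped between libraries. With DFMO the order at the top changed: BATF led at 162 ± 6.58 TPM, followed by IRF4 at 138 ± 13.9 and STAT3 at 125 ± 11.8, and IRF4 and STAT3 overlapped between libraries.

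**Figure D1:**
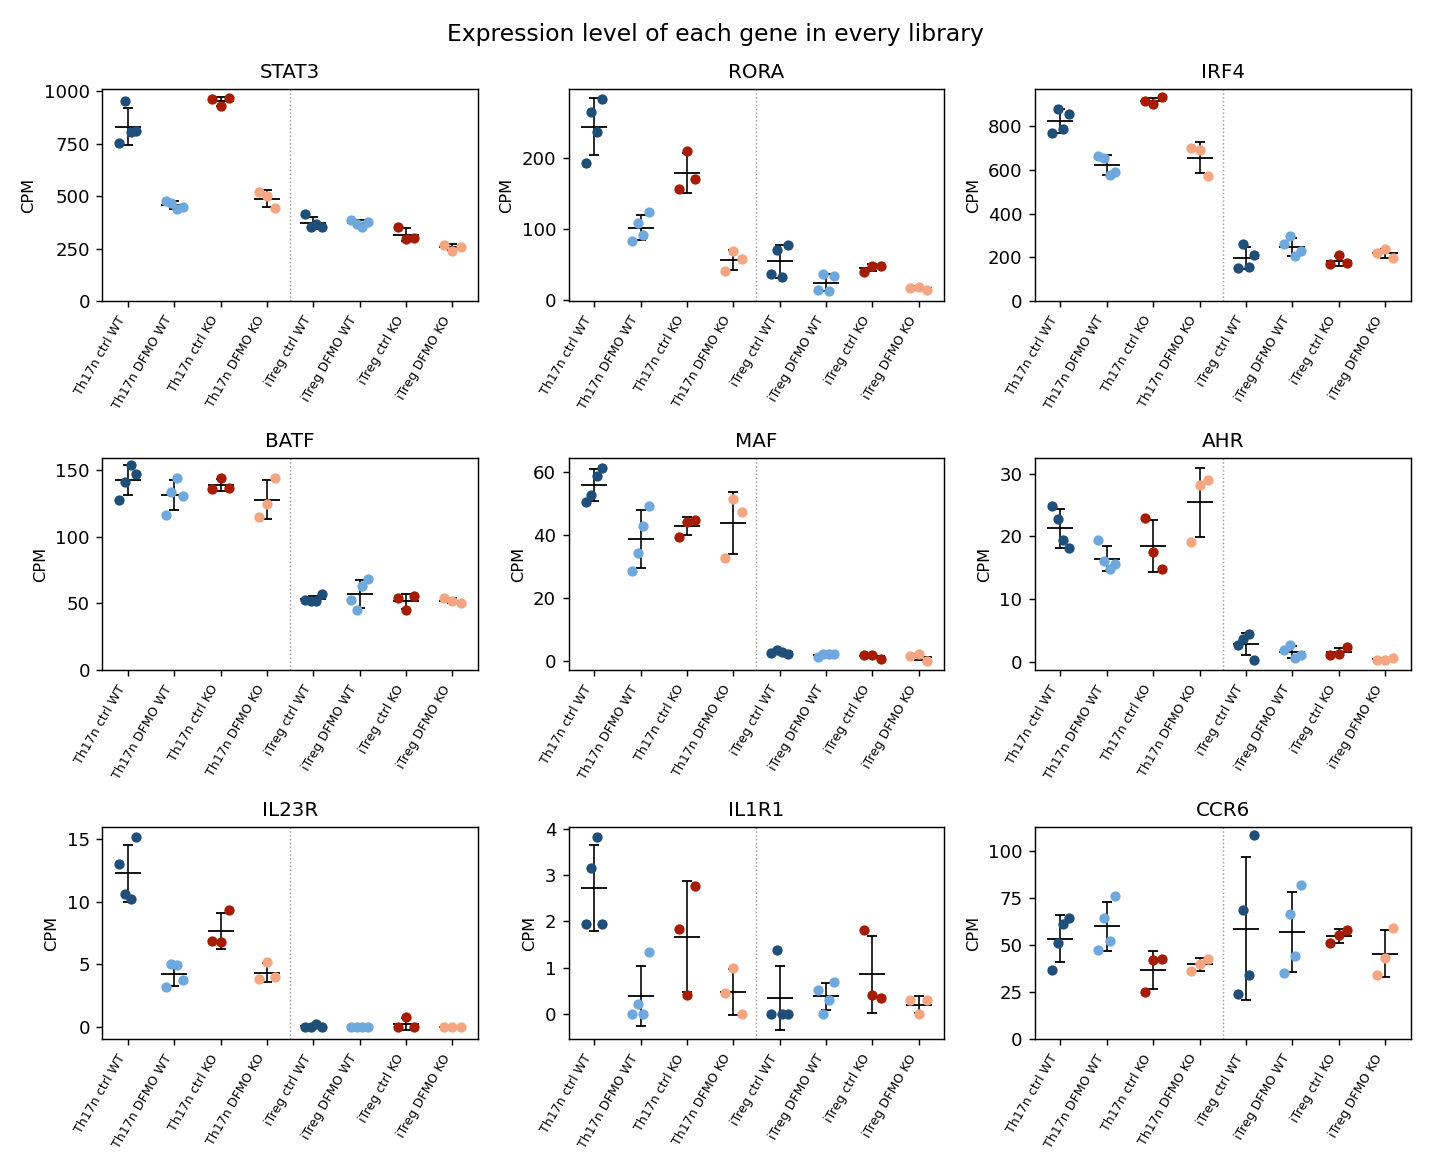
Normalized level (CPM, linear axis) of each of the 9 genes in every library of the 8 groups. Points are libraries, in replicate order within a group, and black marks are the mean and SD. In MAF, AHR and IL23R the Th17n libraries (left of the dotted line) all lie above every iTreg library, while in CCR6 the groups overlap.

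The Th17n cultures were first compared with the iTreg cultures, which differ by the presence of IL-6. All 6 transcription factors and IL23R were higher in Th17n cells, in each genotype and with or without DFMO, and CCR6 was the exception. That is 7 of 8 tested members in each of the 4 comparisons, where edgeR called 40% (ctrl WT), 29.5% (DFMO WT), 35.3% (ctrl KO) and 20.7% (DFMO KO) of the 10985 genes in either direction. For each of these 7 genes, every animal had more in its Th17n than in its iTreg culture, and the libraries of the groups did not overlap in any of the 4 comparisons. No share of all tested genes is given for this separation, so it is a description only. Members' median log2 differences were 2.12, 1.70, 2.14 and 1.65 in the same order. Setting IL23R at its counting bound could not move them, since it stayed above the middle members. IL23R passed the low-count filter through its Th17n libraries, with at most 2 counts in any iTreg library. MAF also passed through its Th17n libraries, with at most 17 counts in any iTreg library. Being high in Th17n was thus what let IL23R and MAF be tested. Without IL23R, but with MAF kept, the medians over 7 members were 2.07, 1.33, 1.97 and 1.58. Over all tested genes the medians were -0.02, -0.02, -0.02 and -0.03.

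MAF, which promotes IL-10 and IL-21 in helper T cells, had the largest difference of the 6 factors in ctrl WT, DFMO WT and ctrl KO, though not in DFMO KO, where AHR had it. Its libraries held 50.4, 52.8, 58.7 and 61.5 CPM in WT Th17n ctrl against 2.42, 3.36, 2.63 and 2.09 in iTreg ctrl. The difference was 4.36 ± 0.24 (SE) on the log2 scale (edgeR adjusted p = 5.79e-15). As said above, MAF passed the filter only through its Th17n libraries. AHR, a sensor of aromatic ligands, stood at 24.9, 22.8, 19.4 and 18.2 CPM in WT Th17n ctrl and at 2.66, 3.56, 4.47 and 0.348 in iTreg ctrl. It was 7.23-fold higher in Th17n (2.85 ± 0.29, adjusted p = 2.21e-09). With DFMO in KO, the iTreg libraries held only 4 AHR counts in all against 337 in Th17n, a ratio of 70.3 with a 95% interval of 27.2 to 259.6 that covers counting error only.

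The factors that start the program differed less. BATF was 2.67-fold higher in WT Th17n ctrl (1.42 ± 0.10), at 127, 141, 153 and 147 CPM against 52.3, 52.0, 51.8 and 56.8, and its difference ran from 1.20 to 1.42 over the 4 comparisons. IRF4 was 4.19-fold higher (2.07 ± 0.13) without DFMO in WT and 2.52-fold higher with it (1.33 ± 0.13). STAT3 was 2.24-fold higher in WT ctrl (1.16 ± 0.08, adjusted p = 5.82e-13 by edgeR) and 1.23-fold higher in WT with DFMO (0.30 ± 0.08, adjusted p = 0.00434). In KO it was 3.01-fold higher without DFMO and 1.91-fold higher with it. RORA was 4.51-fold higher in WT ctrl (2.17 ± 0.23) and 3.29-fold higher in KO with DFMO (1.72 ± 0.32).

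IL23R, the specific chain of the IL-23 receptor, was nearly absent from iTreg cultures. The 4 WT iTreg ctrl libraries held 1 count in all against 225 in Th17n, a ratio of 194 with a 95% interval of 34.5 to 7704. This interval and the bounds that follow cover counting error only, not the spread between animals. In KO ctrl there were 2 counts against 69, a ratio of 32.6 (8.69 to 274). With DFMO no iTreg library held a count, and against a floor of 3 counts over the group Th17n was at least 19.2-fold higher in WT and at least 15.9-fold higher in KO.

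CCR6, which guides Th17 cells and regulatory T cells toward CCL20, was not called between the cultures. In WT Th17n ctrl it stood at 37.0, 51.2, 61.3 and 64.7 CPM and in iTreg ctrl at 24.0, 68.8, 34.5 and 108, so the iTreg libraries reached both below and above the Th17n ones. The log2 difference was -0.12 (95% interval -0.71 to 0.48). In KO ctrl the 3 Th17n libraries (25.2, 42.2 and 42.8) all lay below the iTreg ones (51.0, 55.5 and 58.2). That difference of -0.56 was not called without a block (adjusted p = 0.253) and was called with the animal as a replicate block (-0.59, adjusted p = 0.0387), without a filter (-0.55) and with only those groups in the fit (-0.55), all by edgeR.

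**Figure D2:**
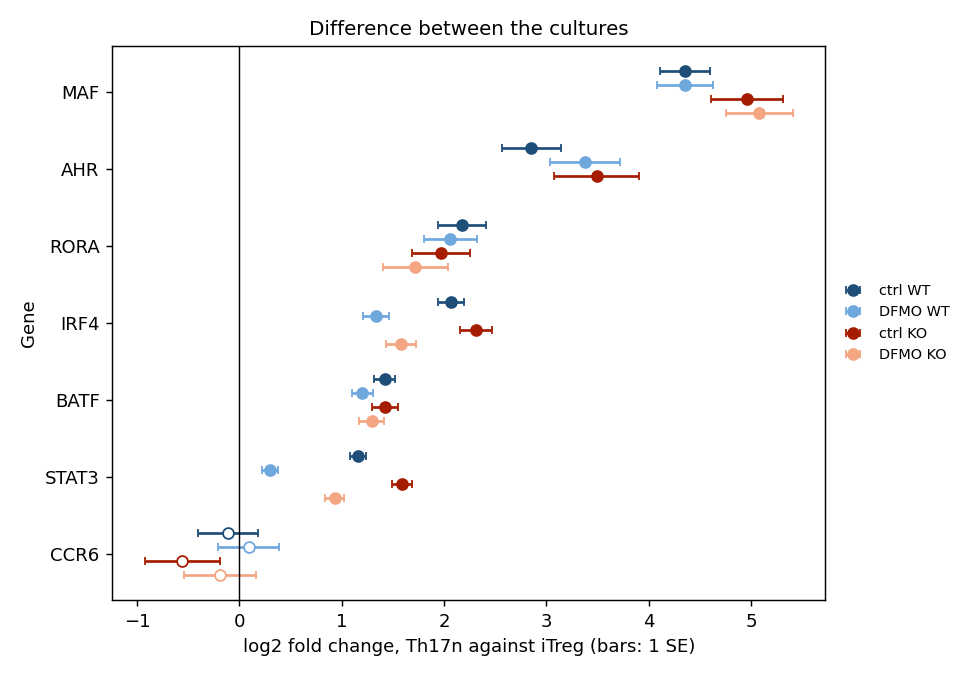
Log2 fold change of Th17n against iTreg for 7 genes (horizontal axis; bars are 1 SE) in the 4 combinations of treatment and genotype; filled points were called at an adjusted p under 0.05. MAF is furthest right and CCR6 lies around 0. IL23R and IL1R1, and AHR in KO with DFMO, are left out because one group held few or no counts.

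Promoters of the members were searched for motifs of 4 factor families on both strands, in the 250 bases before each start site in RefSeq (GRCm38.p6). The tables held 9 start sites for 7 of the 9 genes, none for MAF or AHR. The STAT motif TTCNNNGAA was found at 1 of the 9 start sites (7.02% of 32851 promoters hold it) and the AHR core GCGTG at 3 (28.2%). The AP-1 motif TGANTCA (6.75%) and the ROR motif, AGGTCA after a pair of A or T bases (2.98%), were found at none. The only STAT motifs lay before CCR6, the member without a called difference between cultures, 157 and 120 bases before its first start site. The AHR core lay before RORA and IRF4, and once before the second IL1R1 start site. The first 3 of these are shown with the matches in capitals, read along the gene's strand. A match describes the letters only, and the motifs do not overlap here.
CCR6, chr17:8235793-8236042, plus strand: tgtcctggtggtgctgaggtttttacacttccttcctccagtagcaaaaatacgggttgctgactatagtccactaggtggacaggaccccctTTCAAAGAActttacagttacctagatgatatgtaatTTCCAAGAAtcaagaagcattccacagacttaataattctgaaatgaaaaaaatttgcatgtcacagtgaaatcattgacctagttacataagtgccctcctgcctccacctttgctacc
RORA, chr9:68653536-68653785, plus strand: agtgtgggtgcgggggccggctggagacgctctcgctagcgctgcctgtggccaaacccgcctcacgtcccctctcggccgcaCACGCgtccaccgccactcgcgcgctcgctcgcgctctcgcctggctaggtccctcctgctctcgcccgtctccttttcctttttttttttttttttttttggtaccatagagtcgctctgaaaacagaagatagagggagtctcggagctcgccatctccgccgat
IRF4, chr13:30748983-30749232, plus strand: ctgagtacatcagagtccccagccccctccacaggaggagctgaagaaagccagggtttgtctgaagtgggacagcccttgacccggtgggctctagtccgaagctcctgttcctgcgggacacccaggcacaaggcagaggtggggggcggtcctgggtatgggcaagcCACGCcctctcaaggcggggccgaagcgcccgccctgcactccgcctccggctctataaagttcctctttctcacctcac

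DFMO was then set against ctrl in each culture and genotype. In WT Th17n cells RORA, STAT3, IRF4, MAF and IL23R fell, none of the 8 tested members rose, and BATF, AHR and CCR6 were not called, where edgeR called 51.8% of all genes. In KO Th17n cells RORA, STAT3 and IRF4 fell (3 of 8, where 45.6% of all genes were called). In WT iTreg cells RORA fell and IRF4 rose (2 of 8, against 47.5% of all genes), and in KO iTreg cells RORA, STAT3 and AHR fell (3 of 8, against 38.1%). Of the 8, IL23R held 1 count (WT) and 2 counts (KO) over its iTreg ctrl libraries and none with DFMO. That it was not called in iTreg therefore carries little information. No test sets these counts apart from the shares of all genes. Median log2 changes of the 8 members were -0.47 in WT Th17n and -0.30 in KO Th17n, against -0.07 and -0.06 over all tested genes. Over the 7 members without IL23R, they were -0.40 in WT Th17n and -0.12 in KO Th17n. Over the same 7 members in iTreg they were -0.04 in WT and -0.27 in KO, against -0.05 and -0.03 over all tested genes.

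RORA was the member that fell in all 4 settings. WT Th17n libraries went from 192, 265, 236 and 283 CPM to 83.2, 108, 92.1 and 124. Every DFMO library lay below every ctrl library, and the fall was 2.39-fold (-1.26 ± 0.22, edgeR adjusted p = 2.23e-05). KO Th17n libraries went from 156, 209 and 170.4 to 41.4, 69.5 and 57.3 CPM, a 3.19-fold fall (-1.67 ± 0.27, adjusted p = 7.89e-06). With DFMO, the KO Th17n libraries of RORA overlapped untreated iTreg cells (39.8 to 48.5 CPM in KO).

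In iTreg, RORA libraries of WT went from 36.8, 70.4, 32.9 and 77.3 CPM to 14.8, 37.1, 13.2 and 33.7. Replicates 2 and 4 were high and replicates 1 and 3 low in both treatments, so the groups overlapped although all 4 animals fell. The change was -1.15 ± 0.27 (adjusted p = 0.000786, edgeR). CCR6 had the same split of the 4 animals in iTreg, with and without DFMO. In WT Th17n, replicates 2 and 4 were also the highest for RORA in both treatments. There this held for CCR6 with DFMO but not without it. KO iTreg libraries of RORA went from 39.8, 48.5 and 48.5 to 16.9, 19.2 and 14.4 CPM without overlap (-1.42 ± 0.33, adjusted p = 0.00118). The fall of RORA was not found to differ between the cultures, with a difference of -0.11 in WT (95% interval -0.83 to 0.61) and -0.25 in KO (-1.13 to 0.63).

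STAT3 fell in Th17n cells of both genotypes. WT libraries went from 754, 955, 806 and 809.5 CPM to 479, 465, 439 and 446, a 1.82-fold fall (-0.86 ± 0.08, edgeR adjusted p = 3.01e-10). KO libraries went from 961, 928 and 969 to 520.4, 501 and 444, a 1.95-fold fall (-0.96 ± 0.09, adjusted p = 8.41e-10). In neither genotype did the treated and untreated libraries overlap, and the treated ones stayed above every iTreg library. In WT iTreg cells the values were 414, 352, 366 and 355 without DFMO and 386, 369, 354 and 378 with it. These groups overlapped fully, 2 of 4 animals were higher, and the 95% interval of the change was -0.16 to 0.16. In KO iTreg cells STAT3 fell 1.24-fold, from 351, 297 and 302 to 269, 240.1 and 259 CPM (-0.31 ± 0.09, adjusted p = 0.00934 by edgeR). This call was lost without a filter (-0.28), without iTreg ctrl KO replicate 1 (-0.21) and without iTreg DFMO KO replicate 2 (-0.27).

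IRF4 moved one way in Th17n and the other in iTreg. WT Th17n libraries fell from 769, 880.2, 785 and 856 CPM to 665, 656, 578 and 589.6 (-0.40 ± 0.12, edgeR adjusted p = 0.00792), without overlap. The call was lost without Th17n DFMO WT replicate 3 (-0.31). KO Th17n libraries fell from 914, 900.0 and 931 to 701, 693 and 572 (-0.48 ± 0.14, adjusted p = 0.00707), a call that needed Th17n DFMO KO replicate 3 (-0.35 without it). In WT iTreg cells IRF4 rose 1.26-fold, from 153, 260.5, 158 and 213 to 259, 296, 205 and 229 CPM, with overlapping groups and a rise in all 4 animals (0.33 ± 0.13, adjusted p = 0.0323). That call did not hold with upper-quartile scaling (0.28), with only the compared groups (0.33), on TPM (0.18), or without iTreg ctrl WT replicate 1 (0.22) or 3 (0.25) or iTreg DFMO WT replicate 1 (0.31) or 2 (0.22). In KO iTreg cells the change of 0.25 ± 0.15 was not called, though all 3 animals were higher on CPM.

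BATF, the partner of IRF4 on DNA, was not called in any of the 4 settings. It stood at 116, 134, 144 and 131 CPM in WT Th17n with DFMO, overlapping its ctrl libraries. The 95% intervals of its change were -0.31 to 0.08 in WT Th17n, -0.35 to 0.11 in KO Th17n, -0.12 to 0.32 in WT iTreg and -0.25 to 0.28 in KO iTreg.

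**Figure D3:**
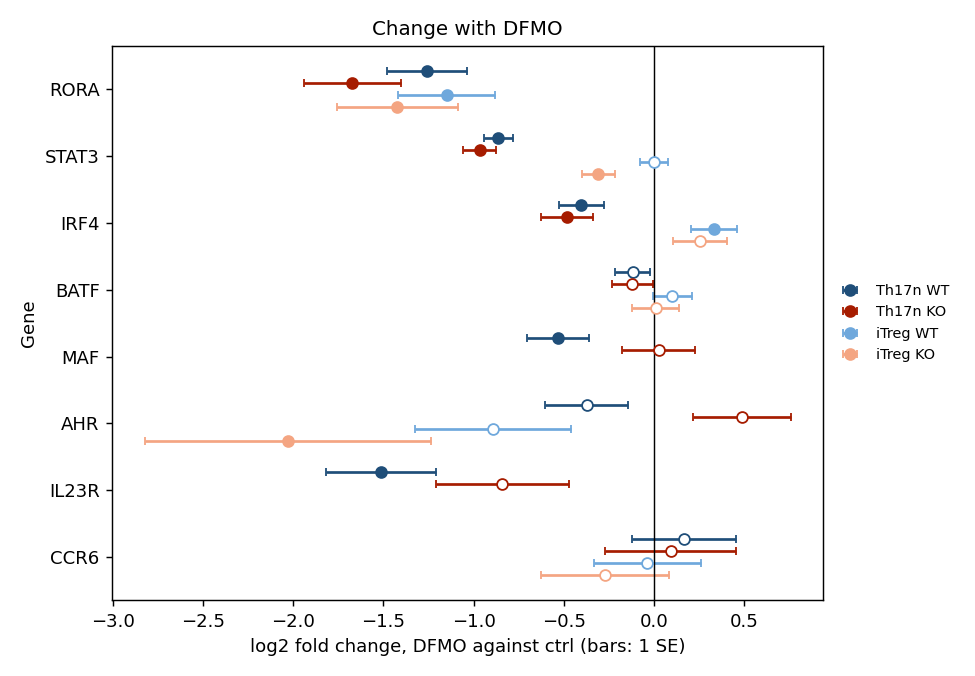
Log2 fold change with DFMO (horizontal axis; bars are 1 SE) for 8 genes in the 4 combinations of culture and genotype; filled points were called at an adjusted p under 0.05. RORA lies left of 0 in all 4, STAT3 and IRF4 differ between Th17n and iTreg, and BATF and CCR6 lie around 0. MAF and IL23R in iTreg are left out for their low counts.

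MAF fell in WT Th17n cells, to 28.6, 34.1, 42.9 and 49.2 CPM from the ctrl values given above, in all 4 animals and without overlap (-0.53 ± 0.17, adjusted p = 0.0108 by edgeR). The call was lost on TPM (-0.38), without Th17n DFMO WT replicate 1 (-0.39) and without replicate 2 (-0.41). In KO Th17n cells MAF stood at 39.4, 44.2 and 44.9 CPM without DFMO and at 32.6, 51.5 and 47.4 with it, and was not called (0.03 ± 0.20). AHR in WT Th17n cells was at 19.3, 16.1, 14.8 and 15.6 CPM with DFMO, lower than ctrl in 4 of 4 animals but overlapping and not called (-0.37 ± 0.23, adjusted p = 0.182). KO Th17n libraries held 22.9, 17.5 and 14.9 CPM of AHR without DFMO and 19.1, 28.2 and 29.0 with it. This difference of 0.49 ± 0.27 was not called, and was called as higher with only those groups in the fit (0.55) and without Th17n DFMO KO replicate 1 (0.72).

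In iTreg cells these factors were near the limit of detection. MAF held 43 counts over the 4 WT ctrl libraries and 25 with DFMO, and was not called. AHR in KO iTreg cells was called lower on 13 counts without DFMO and 4 with it, a ratio of 4.39 with a 95% interval of 1.36 to 18.5 for counting error (-2.03 ± 0.80, adjusted p = 0.0439 by edgeR). That call was lost on TPM (-0.09) and without iTreg ctrl KO replicate 2 (-2.17) or 3 (-1.59) or iTreg DFMO KO replicate 1 (-1.94) or 2 (-1.74). In WT iTreg cells, 47 and 21 AHR counts were not called (-0.89 ± 0.43, adjusted p = 0.0897), but were without iTreg ctrl WT replicate 4 (-1.18) or iTreg DFMO WT replicate 2 (-1.29).

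IL23R fell in WT Th17n cells. WT Th17n libraries went from 13, 10.6, 10.2 and 15.1 CPM to 3.18, 5.06, 4.94 and 3.77, so that every treated library lay below every untreated one. The fall was 2.86-fold (-1.52 ± 0.30, edgeR adjusted p = 0.000182). KO Th17n libraries went from 6.88, 6.76 and 9.33 to 3.83, 5.19 and 4.0 CPM, also without overlap, but this was not called (-0.84 ± 0.37, adjusted p = 0.067). It was called on TPM (-0.52) and with only the compared groups (-0.80). Mean levels with DFMO were 34.6% of ctrl in WT and 56.7% in KO.

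IL1R1, the signaling receptor for IL-1, was too low to pass the filter. Rounded counts in WT Th17n were 9, 14, 18 and 9 without DFMO and 0, 1, 0 and 5 with it, which do not overlap. Summed counts of 50 and 6 give a ratio of 7.20, with a 95% interval of 3.08 to 20.5 for counting error. An exact two-sided permutation test over the animals' CPM gave p = 0.0286, the smallest that 4 against 4 allows, and 0.0571 after adjustment over 4 comparisons of this gene. In an edgeR fit of 18995 genes without the filter the change was -2.68 ± 0.78 (adjusted p = 0.00328). KO Th17n counts were 4, 1 and 11 without and 2, 4 and 0 with DFMO, and overlapped (exact p = 0.3, where 3 against 3 cannot go below 0.1). WT Th17n ctrl was also above iTreg ctrl, where 1 of 4 libraries held 7 counts and the others none (2.64 ± 0.76, adjusted p = 0.00395 in the unfiltered edgeR fit; exact p = 0.0286, adjusted 0.0571). In KO ctrl 16 and 7 counts passed neither test (1.02, adjusted p = 0.569 by edgeR; exact p = 0.3).

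CCR6 was not called with DFMO in any setting. WT Th17n libraries held 47.4, 64.5, 52.3 and 76.4 CPM with DFMO, overlapping their ctrl values, and the 95% interval of the change was -0.43 to 0.76. In WT iTreg cells the DFMO libraries held 35.5, 66.5, 44.2 and 82.0 CPM, with an interval of -0.64 to 0.57. Replicates 2 and 4 were the high ones there, as they were without DFMO.

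The difference in the DFMO change between the cultures was then tested itself. STAT3 and IRF4 were called, each lower in Th17n relative to iTreg, in WT (2 of 8 members, where 8.73% of all genes were called) and in KO (2 of 8, against 5.9%). IL23R, among these 8, had 1 count (WT) and 2 counts (KO) in iTreg ctrl and none with DFMO, so its own test here says little. For STAT3 the difference of changes was -0.86 ± 0.11 in WT (edgeR adjusted p = 7.26e-06) and -0.66 ± 0.13 in KO (adjusted p = 0.00174). In single WT animals STAT3 changed by -0.65, -1.04, -0.88 and -0.86 log2 CPM in Th17n and by -0.10, 0.07, -0.05 and 0.09 in iTreg, so the sets were far apart. For IRF4 the difference was -0.74 ± 0.18 in WT (adjusted p = 0.00815) and -0.74 ± 0.21 in KO (adjusted p = 0.0305). On CPM its 7 animals were all lower with DFMO in Th17n and all higher in iTreg. By TPM, IRF4 in iTreg was lower with DFMO in WT replicates 2 (60.4 to 59.2) and 4 (47.9 to 43.2). It was also lower in KO replicate 3 (36.5 to 34.0), and higher in the rest. On TPM, 2 of these 4 calls were lost: IRF4 in WT (-0.52) and STAT3 in KO (-0.46). The IRF4 call in KO was also lost with upper-quartile scaling (-0.67) and when any of 8 of its 12 libraries was left out (-0.61 to -0.72). AHR in KO was not called (2.52 ± 0.84, adjusted p = 0.0736) but was with DESeq2 (2.62), without a filter (2.57) and with only those groups (2.55); its iTreg arms rest on 13 and 4 counts.

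**Figure D4:**
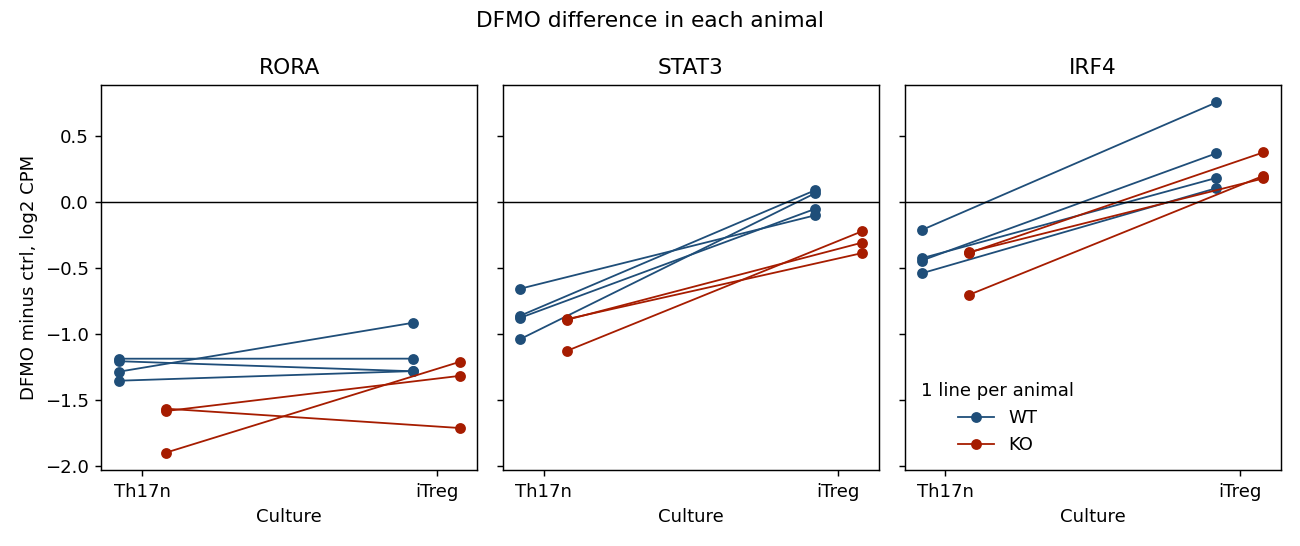
DFMO minus ctrl in log2 CPM (vertical axis) for RORA, STAT3 and IRF4, with 1 line per animal joining its Th17n and iTreg cultures (blue, WT; red, KO). RORA is below 0 in both cultures, STAT3 is lower in Th17n than in iTreg in all 7 animals, and IRF4 is below 0 in Th17n and above 0 in iTreg.

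KO was set against WT to ask whether JMJD3 loss itself moved these genes. None of the 8 tested members was called by edgeR in Th17n ctrl (where 3.04% of all genes were called), in Th17n with DFMO (1.02%) or in iTreg ctrl (5.3%). In iTreg with DFMO, STAT3 was lower in KO (1 of 8, against 4.14% of all genes), at 269, 240.1 and 259 CPM against 386, 369, 354 and 378 in WT, without overlap (-0.54 ± 0.09, adjusted p = 0.000236). In iTreg ctrl STAT3 libraries did not overlap between genotypes either, and the change of -0.23 ± 0.09 was not called (adjusted p = 0.13). Of the 8 members, IL23R held no count in either genotype in iTreg with DFMO and could not be called there. In iTreg ctrl it held 1 count in WT and 2 in KO.

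RORA had a lower mean in KO in all 4 cultures. In Th17n with DFMO its KO libraries (41.4 to 69.5 CPM) lay below all WT ones (83.2 to 124), a 1.82-fold difference that was not called (-0.87 ± 0.26, adjusted p = 0.121 by edgeR). It was called without the filter (-0.87, adjusted p = 5.38e-06) and with only those groups fitted (-0.87, adjusted p = 0.0177). In Th17n ctrl the difference of -0.45 ± 0.24 was called only without the filter (-0.47, adjusted p = 0.0299). IL23R in Th17n ctrl was at 6.76 to 9.33 CPM in KO and at 10.2 to 15.1 in WT, which do not overlap. That change of -0.65 ± 0.32 (adjusted p = 0.358 by edgeR) was called only on TPM (-0.54). With DFMO the IL23R levels of the genotypes overlapped (0.02 ± 0.36).

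Whether the DFMO change depended on genotype was tested by the interaction. None of the 8 members was called in Th17n (0.328% of all genes were) or in iTreg (0.246%). IL23R held no count in iTreg with DFMO, so its interaction there could not be estimated. The largest differences in Th17n among the 8 genes, each with the more positive change in KO, were those of AHR (0.86 ± 0.36, adjusted p = 0.59 by edgeR), IL23R (0.68 ± 0.48, adjusted p = 0.869) and MAF (0.56 ± 0.27, adjusted p = 0.715). AHR in Th17n was lower with DFMO in 4 of 4 WT animals and higher in 2 of 3 KO animals. For STAT3 the 95% interval of the difference in Th17n was -0.35 to 0.14 and for RORA -1.12 to 0.29.

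Other genes of these pathways were read from 8 lists. With DFMO in WT Th17n, 9 of 16 tested genes of IL-6 and STAT3 signaling fell and none rose, beside 51.8% of all tested genes called in either direction, with a median of -0.80 (-0.07 over all genes). Among them were the STAT3 feedback inhibitor SOCS3 (-1.17 ± 0.09), the kinase PIM2 (-1.99 ± 0.13) and the phosphatase PTPN2 (-1.29 ± 0.12). The same list had 9 falls and no rise in KO Th17n, 3 rises and 7 falls in WT iTreg, and 4 rises and 7 falls in KO iTreg. Of all tested genes 45.6%, 47.5% and 38.1% were called in these settings, in the same order. SOCS3 was not called in WT iTreg (-0.13) and rose in KO iTreg (0.38). In untreated WT cells SOCS3 was 3.54 ± 0.10 higher in Th17n than in iTreg on the log2 scale. There 11 of the 16 were higher and 1 lower, beside 40% of all tested genes called in either direction.

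The partners of IL23R and IL1R1 were 13 tested receptor genes, of which 7 fell and 1 rose in WT Th17n, again beside 51.8% of all genes called. The IL-10 receptor gene IL10RA fell (-2.11 ± 0.26), as did IL12RB2 (-2.70 ± 0.35) and the IL-2 receptor gene IL2RA (-0.53 ± 0.09). Of 11 chemokine receptor and homing genes beside CCR6, 7 fell and none rose, among them CCR7 (-1.04 ± 0.09) and CXCR5 (-1.14 ± 0.26), with a median of -1.04 (-0.07 over all genes). The other Th17 factors fell in 4 of 7 cases with no rise, including SATB1 (-1.80 ± 0.11), HIF1A (-1.27 ± 0.14) and NFKBIZ (-0.68 ± 0.12). No test sets these lists apart from the 51.8% of all genes called.

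The AP-1 and IRF partners of BATF and IRF4 moved both ways in WT Th17n, with 5 rises and 3 falls among 15, where 51.8% of all genes were called in one direction or the other. The same share stands beside the next 3 lists. ATF3 (1.31 ± 0.14) and NFATC1 (1.11 ± 0.13) rose and IRF2 fell (-0.81 ± 0.13). Of 9 AHR partners and targets, 2 rose and 4 fell, including the dimer partner ARNT (-0.74 ± 0.14) and the AHR target TIPARP (-1.63 ± 0.15). Th17 cytokine and effector genes had 4 rises and 5 falls among 11. TGFB3 fell (-4.25 ± 0.26), while IL9 (2.83 ± 0.31) and the CCR6 ligand CCL20 (2.17 ± 0.26) rose. Factors of other CD4 lineages had 2 rises and 2 falls among 9, with FOXP3 of regulatory T cells at 1.94 ± 0.22. All these calls are at an edgeR adjusted p under 0.05.

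Between the untreated WT cultures, the same lists were read beside the 40% of all tested genes called in either direction. Of the cytokine and effector genes 10 of 11 were higher in Th17n and none lower. IL17F stood at 916 ± 329 CPM (SD) against 4.17 ± 5.09 in iTreg. The other Th17 factors were higher in 6 of 7 cases, such as SATB1 (3.30 ± 0.12) and HIF1A (1.84 ± 0.15). The AP-1 and IRF partners divided, with 5 higher, FOSL2 (2.90 ± 0.14) and BACH2 (1.63 ± 0.09) among them, and 6 lower. Among AHR partners and targets 3 of 9 were higher, including TIPARP (2.69 ± 0.16), and none lower. Receptor partners were higher in 6 of 13 cases and lower in 2, with IL12RB1, which pairs with IL23R, at 1.16 ± 0.10. Chemokine receptor and homing genes were higher in 7 of 11 cases, with CXCR5 at 2.02 ± 0.28. Factors of other lineages were lower in 4 of 9 cases and higher in 2, GATA3 of Th2 cells at -4.01 ± 0.15 and FOXP3 at -4.86 ± 0.21.

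All tested members but CCR6 varied together over the 28 libraries, as a description of libraries that share culture and animal. Pearson's r of log2 CPM was between 0.78 and 0.96 for the 21 pairs without CCR6, and between -0.20 and 0.15 for CCR6 with the others. Among 8120 genes searched, the most alike were CREM (0.96) and RBPJ (0.95) for RORA, GOT1 and ARIH2 (both 0.96) for STAT3, and MYO10 (0.98) and TIMP1 (0.97) for BATF. GCNT2 and ADARB1 (both 0.97) were most like IRF4, IL17A and IL21 (both 0.97) most like MAF, and ABTB2 (0.95) and MYO10 (0.94) most like AHR. For IL23R these were LTB4R1 and SERPINF1 (both 0.98). CCR6 had no close match, the nearest being SLC4A7 (0.68) and TIMMDC1 (0.65).

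On GRCm38 (GENCODE M21, all protein coding) RORA lies on chromosome 9 (68653786 to 69388246, plus strand), STAT3 on chromosome 11 (100885098 to 100939540, minus), BATF on chromosome 12 (85686669 to 85709087, plus) and IRF4 on chromosome 13 (30749226 to 30766976, plus). MAF lies on chromosome 8 (115682942 to 115707794, minus) and AHR on chromosome 12 (35497974 to 35535038, minus). Of the receptors, IL23R is on chromosome 6 (67422932 to 67491855, minus), IL1R1 on chromosome 1 (40225080 to 40317257, plus) and CCR6 on chromosome 17 (8236043 to 8257141, plus).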

How the data were processed

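RNA was measured in 28 libraries (full-length, paired reads of 75 bp, per the labels' protocols). The authors deposited an estimated count and a TPM per gene, made with kallisto on GRCm38 per the submitters' processing notes (version not given in the sources used here). Deposited estimated counts were rounded to whole numbers (67.2% were whole within 0.001) and fitted in edgeR 4.0.16 (R 4.3.3) as 1 quasi-likelihood model of 8 group means, with TMM scaling, edgeR's low-count filter and 20 residual degrees of freedom. P-values were adjusted over all 10985 tested genes (Benjamini-Hochberg) and called under 0.05. CPM is scaled by TMM (prior count of 2 for log2 values). The 16 comparisons are DFMO against ctrl, KO against WT, Th17n against iTreg and 2 kinds of interaction. Deposited TPM served to compare genes and, as log2(TPM + 1) in limma 3.58.1, as an alternative. Others were DESeq2 1.42.0, upper-quartile scaling, no filter, only the compared groups, an animal block and leaving out each library. The main fit was tested on simulated counts for DFMO in WT Th17n. It recovered 40.3% of 1.5-fold, 79.1% of 2-fold and 89.4% of 4-fold changes, with 4 false calls. A gene that was not called may therefore still differ, above all by 1.5-fold or less. IL1R1 was tested in SciPy 1.17.1 by a permutation that did not use the pairing by animal.

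The labels name the animal, which pairs libraries within a genotype. Deviations from group means correlated at 0.0956 on average between libraries of 1 animal (42 pairs). The average between animals of 1 genotype was -0.037 (108 pairs). It is no separate check, since subtracting group means largely fixes it from the first value. KO against WT could not be fitted with the block, since animals are nested in genotype. Members, lists and motifs were chosen with earlier results of these data known. From each list the text names up to 3 genes with the smallest adjusted p for DFMO in WT Th17n and up to 2 for Th17n against iTreg in WT ctrl, with a mean of at least 10 CPM, and KDM6B as the targeted gene. A few genes are not reported here. Strand was not used in counting as far as the sources say, so antisense overlap cannot be told apart. For likeness, Pearson's r over all libraries was ranked.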

Additional observations from a re-analysis of the deposited data

Results flagged for a closer look

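Within groups of 4 libraries, 5 of 35 combinations of gene and group had 1 library far from the other 3 relative to the group's range. For normally distributed values chance flags about 1 in 20. That rate does not hold for groups with few counts, such as those of MAF, IL23R and IL1R1 below, so no excess can be read from it. BATF in iTreg ctrl WT was highest in replicate 4 at 56.8 CPM, above 3 libraries between 51.8 and 52.3. MAF in iTreg DFMO WT was lowest in replicate 1 at 1.28 CPM. IL23R in iTreg ctrl WT was present in replicate 3 only, at 0.263 CPM, which is 1 count. IL1R1 stood out in replicate 4 of Th17n DFMO WT at 1.35 CPM (5 counts) and in replicate 2 of iTreg ctrl WT at 1.38 CPM (7 counts).

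The change with DFMO differed between Th17n and iTreg by the test of the interaction for STAT3 (-0.86 in WT and -0.66 in KO) and for IRF4 (-0.74 in WT and -0.74 in KO), all on the log2 scale and by edgeR. STAT3 was lower with DFMO in 7 of 7 animals in Th17n. On CPM, IRF4 was lower in 7 of 7 in Th17n and higher in 7 of 7 in iTreg, but on TPM not all animals were higher in iTreg.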

How the results depend on the processing

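Of 1838 member values under an alternative, 1790 kept their call, 31 lost it, 16 gained one and 1 reversed with a call: IL23R in the DFMO by differentiation interaction in WT, at 0.02 by edgeR and at -1.05 on TPM. Of the 1790, 107 changed sign without a call on either side. The cause was not tested for any of these.

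The number of members called moved as follows. For DFMO in WT iTreg it was 1 with upper-quartile scaling, 1 with only the compared groups and 1 on TPM, and 1 to 3 without single libraries. For DFMO in KO Th17n it was 5 with only the compared groups, and for DFMO in KO iTreg 1 to 3 without single libraries. For KO against WT it was 1 without the filter and 1 on TPM in Th17n ctrl, and 1 without the filter and 1 with only the compared groups in Th17n DFMO. For DFMO by differentiation in KO it was 1 with upper-quartile scaling, 1 on TPM and 1 to 2 without single libraries.

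The number of all genes called for KO against WT was 126 to 337 without single libraries in Th17n ctrl. In Th17n DFMO it was 230 without the filter, 49 on TPM and 33 to 128 without single libraries. In iTreg ctrl it was 307 with only the compared groups and 284 to 614 without single libraries, and in iTreg DFMO 190 and 256 to 687. For DFMO by genotype in Th17n it was 57 with the replicate block, 132 without the filter, 129 with only the compared groups, 6 on TPM, 62 by DESeq2 and 19 to 35 without single libraries. In iTreg it was 57 with the replicate block, 146 without the filter, 4 with only the compared groups, 95 by DESeq2 and 15 to 99 without single libraries. The block changed 1 of 96 member calls, that of CCR6 in KO ctrl between the cultures.

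On TPM the median log2 change of all genes moved from -0.05 to -0.19 for DFMO in WT iTreg, from -0.02 to 0.15 for Th17n against iTreg in WT with DFMO and from -0.01 to 0.19 for DFMO by differentiation in WT, so member values on TPM are relative to these. Low counts limit AHR, MAF, IL23R and IL1R1 in iTreg.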
